A study of Mus musculus with 4 samples.

Results

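A small group of B cells in the mouse left ventricle carried messages of Fcrl5, Mzb1, Zbtb32 and Bhlhe41, genes that are known from B-1 and marginal zone B cells. They were picked cell by cell. A cell entered when its unique molecular identifier (UMI) counts, which count captured RNA molecules, summed to at least 4 over the B cell genes Cd79a, Cd79b and Ms4a1, to 0 over Cd3e, Cd3d and Cd3g, and to at most 2 over C1qa, C1qb and C1qc, and when at least 2 of the 4 marker genes had a UMI. These 135 B-1-like cells were among 5139 B cells, and among 11148 cells that could be given to a mouse. The other 5004 B cells had no marker or 1 marker. RNA values of these same cells chose the group, so RNA differences between B-1-like and other B cells are given as descriptions with no test. The surface antibodies, the shares of cells per mouse and the comparison of the 2 groups of mice were not used by the rule and were tested.

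The study set mice treated with DOCA-salt, that is deoxycorticosterone acetate with salt, a model of mineralocorticoid hypertension, against sham mice. All animals were C57Bl6J, and their ages are not given in the sources used here. Live CD45+ cells, the leukocytes, were taken from perfused and digested left ventricles after bead enrichment and sorting, and were read by droplet 5′ RNA sequencing together with 16 surface antibodies. Each group was 1 library that held 4 hashtagged mice, so group and library cannot be told apart, and p-values over mice describe the spread between mice within these 2 libraries. The DOCA-salt library gave 7030 assigned cells with a median of 3250 UMIs, against 4118 assigned sham cells with a median of 2817 UMIs. The rule found 88 B-1-like cells in DOCA-salt hearts and 47 in sham hearts. The libraries shared 41 barcode sequences, 1 of them carried by a B-1-like cell.

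B-1 cells are a B cell lineage of mice that arises largely before and around birth, renews itself, and settles mainly in the peritoneal and pleural cavities. They secrete natural antibody, mostly of the IgM class, without immunisation. Their receptors are drawn from a restricted set of V genes, the best known of which bind phosphatidylcholine on aged cells. Follicular B cells, the recirculating majority, instead carry CD23, encoded by Fcer2a, and much surface IgD.

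Among the marker genes, Mzb1, which encodes an endoplasmic reticulum chaperone that helps IgM assembly, was found most often. It had a UMI in 98.5% of B-1-like cells and in 52.1% of other B cells. Fcrl5, at chr3:87435773-87500678 on the plus strand of GRCm38 (mm10), encodes an Fc receptor-like membrane protein that B-1 and marginal zone B cells carry. It had a UMI in 64.4% of B-1-like cells and in 0.620% of other B cells. Zbtb32, at chr7:30589681-30598909 on the minus strand, encodes a transcriptional repressor. It had a UMI in 28.1% of B-1-like cells and in 0.0600% of other B cells. Bhlhe41, at chr6:145858243-145865558 on the minus strand, encodes a transcription factor known for its part in B-1a cell development in mice. It had a UMI in 33.3% of B-1-like cells and in 0.400% of other B cells. In practice the rule therefore picked Mzb1-positive B cells that also held 1 of the 3 rarer messages. The most common combination was Fcrl5 with Mzb1, in 62 cells. Mzb1 with Bhlhe41 alone was found in 25 cells and Mzb1 with Zbtb32 alone in 19 cells. Another 27 cells had 3 or 4 of the markers.

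The markers' shares were similar in the 2 groups of mice. Fcrl5 had a UMI in 64.8% of B-1-like cells of DOCA-salt hearts and in 63.8% of those of sham hearts. Zbtb32 had one in 30.7% of DOCA-salt and 23.4% of sham B-1-like cells, and Bhlhe41 in 32.95% and 34.04%. Cells of other types gave the background of the markers. These were gated by Cd3, NK or C1q messages and kept when their B cell gene UMIs stayed below the 4 that the rule asks for, which leaves out droplets with more B cell RNA. None of 1375 T cells, 1759 NK cells and 917 macrophages had 2 or more of the 4 markers, and counts of 0 allow shares of up to 0.218%, 0.171% and 0.327%. Mzb1 alone had a UMI in 1.45% of the T cells, 1.25% of the NK cells and 1.42% of the macrophages. Their median depths were 5148, 3389 and 3724 UMIs.

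The rule finds deep cells more easily than shallow ones. B-1-like cells had a median of 4462 UMIs and other B cells a median of 2804.5 UMIs. When all cells were thinned to 1500 UMIs, 28.6% of the 133 B-1-like cells with that many UMIs still had 2 markers. The other B cells may therefore include cells of the same kind in which fewer markers were detected. Just outside the threshold, the 2663 B cells with 1 marker had a median of 2917 UMIs. Just inside it, the 108 cells with exactly 2 markers had a median of 3996.5 UMIs, and the 27 cells with 3 or 4 markers had one of 6691 UMIs.

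Several genes outside the rule differed with the number of markers. Plac8, a small cysteine-rich protein of several leukocyte types, stood at 151 CPM, which are UMIs scaled to a common total per sum of cells, in B cells with 0 markers, 214 CPM with 1, 647 CPM with 2 and 1464 CPM with 3 or 4. S100a6, a calcium-binding protein, stood at 77.1, 96.9, 641 and 1028 CPM over the same steps. Cd5, the surface receptor that separates B-1a from B-1b cells, went through 0.329, 1.45, 6.03 and 53.8 CPM, the last from 5 of 27 cells. These 3 genes had their highest level in the cells with most markers. Fcer2a ran the other way, with 648, 575, 280 and 24.5 CPM, and Vpreb3, a gene of immature and transitional B cells, had 265, 290, 173 and 19.6 CPM. Ighm, the IgM heavy chain, varied less, with 920, 972, 1005 and 1366 CPM, whereas Ighd had 422, 392, 282 and 122 CPM. Other genes were mixed over these steps. Cd9 had 16.6, 19.6, 82.4 and 190.9 CPM and was highest with 3 or 4 markers. Spn, which encodes CD43, had 20.7, 13.98, 8.04 and 48.95 CPM, so it was lower with 2 markers than with 0. Ctla4 had 0.164, 1.57, 14.08 and 9.79 CPM. Cxcr5 changed little, with 180.7, 194.1, 213.2 and 190.9 CPM. Cell depth was also greater with more markers, and its part in these levels was not tested.

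**Figure D1:**
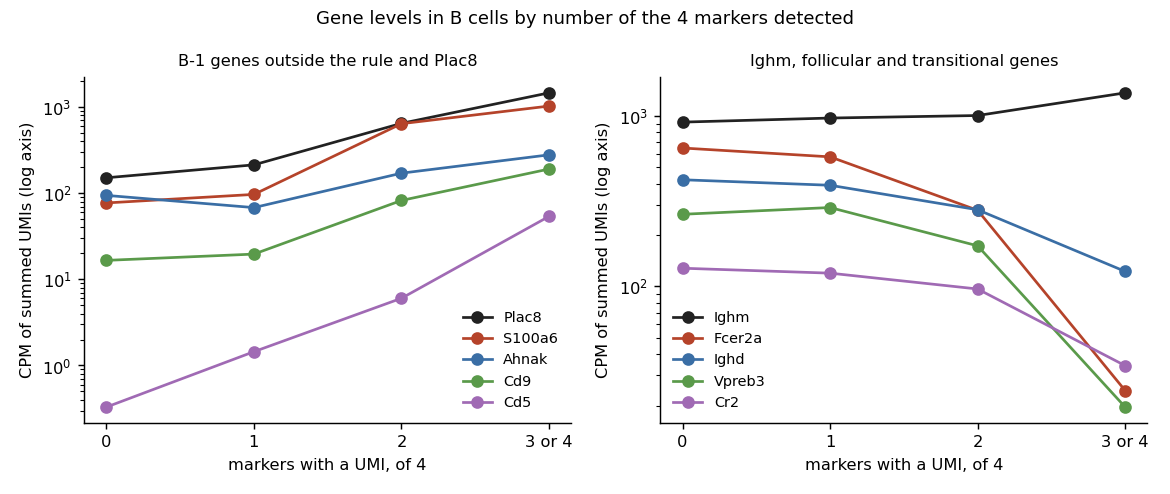
Level of 10 genes outside the rule in B cells with 0, 1, 2, and 3 or 4 of the 4 markers (x axis), in CPM over all cells of the step on a log axis; 1 line is 1 gene. Plac8 stood at 151 CPM in cells without a marker and at 1464 CPM in cells with 3 or 4, while Fcer2a stood at 648 and 24.5 CPM.

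The B-1-like cells were not uniform. Cells with Mzb1 and Zbtb32 had the highest S100a6, 1494 CPM, against 401 CPM in cells with Fcrl5 and Mzb1, 334 CPM in cells with Mzb1 and Bhlhe41, and 88.5 CPM in other B cells. Crip1, a LIM-domain protein found at high levels in several memory-like lymphocytes, stood at 4776 CPM with Mzb1 and Zbtb32, 1239 CPM with Fcrl5 and Mzb1, 2784 CPM with Mzb1 and Bhlhe41, and 887 CPM in other B cells. Vpreb3 stood at 379 CPM in cells with Mzb1 and Bhlhe41, 19.6 CPM in cells with 3 or 4 markers, and 279 CPM in other B cells. It had a UMI in 12 of 25 cells with Mzb1 and Bhlhe41, in 3 of 27 cells with 3 or 4 markers, and in 43.0% of other B cells. Sox4, a transcription factor of early lymphocytes, stood at 145 CPM in cells with Mzb1 and Bhlhe41 and 15.4 CPM in other B cells, but 4 of the 25 cells held those UMIs. Vpreb3 was thus found about as often in cells with Mzb1 and Bhlhe41 as in other B cells. Dtx1, a Notch pathway gene of marginal zone B cells, stood at 144 CPM with Fcrl5 and Mzb1, 160 CPM with Mzb1 and Zbtb32, 55.7 CPM with Mzb1 and Bhlhe41, and 69.1 CPM in other B cells.

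Set against the other B cells of the same mouse, 110 of 6045 measured genes (1.82%) were higher in the B-1-like cells of 8 of 8 mice, and 265 (4.38%) were lower in 8 of 8. Measured means a mean of at least 20 CPM in either class. Ratios are medians over the 8 mice of within-mouse log2 ratios after adding 10 CPM to each value, which understates the ratio of low genes. The median over all measured genes was −0.11. With B cells of 1 marker and at least 3000 UMIs as the comparison, a choice made after seeing the data, 77 genes were higher and 120 lower in 8 of 8 mice, and all genes named from the ranking below kept their direction.

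Plac8, at chr5:100553725-100572245 on the minus strand, led the genes that were higher. It had 615, 784, 1183 and 1139 CPM in B-1-like cells of the DOCA-salt mice and 1479, 540, 1105 and 455 CPM in those of the sham mice, against 143, 148, 103 and 185 CPM in the DOCA-salt mice's other B cells and 214, 283, 179 and 236 CPM in the sham mice's other B cells. The 2 classes of cells did not overlap, with a median log2 ratio of 2.44, or 1.75 against the deeper B cells with 1 marker. Ass1, the argininosuccinate synthase of arginine synthesis, averaged 149 CPM in B-1-like and 26.8 CPM in other B cells, a log2 ratio of 2.17. Phgdh, the first enzyme of serine synthesis, averaged 149 and 57.5 CPM, a log2 ratio of 1.27. Kcnn4, a calcium-activated potassium channel of activated lymphocytes, had a log2 ratio of 1.76 at 81.7 CPM in B-1-like and 7.41 CPM in other B cells. Adora2a, an adenosine receptor, had one of 1.53 at 52.0 and 11.5 CPM. The ranking took only genes that were higher in 8 of 8 mice, so the shared direction of these genes came with the choice. Over all B-1-like cells Kcnn4 rested on 47 UMIs and Adora2a on 34.

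The transcription regulators Sp140 and Myc were in the same ranking. Sp140, a chromatin reader of immune cells, averaged 456 CPM in B-1-like and 191 CPM in other B cells, a log2 ratio of 1.23. Myc, which drives cell growth, averaged 219 and 75.2 CPM, a log2 ratio of 1.22, and was higher in 7 of 8 mice against the deeper B cells with 1 marker. Itgb1, the integrin beta 1 chain, averaged 114 and 42.4 CPM, a log2 ratio of 1.27. The remaining genes that the ranking named as higher were Plscr1, S100a6, Ccdc28b, Rilpl2, Ptpn22, Cbfa2t3 and Rab30, with log2 ratios of 1.12 to 1.91.

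Of a list of 12 genes known from mouse B-1 cells, beyond the 4 used by the rule, 9 were measured, 4 were higher in 8 of 8 mice, none was lower in 8 of 8, and the median log2 ratio was 1.02. The 4 were S100a6 (1.75), Plscr1, a phospholipid scramblase (1.91), Ptpn22, a phosphatase that tempers antigen receptor signals (1.34), and Ahnak, a large scaffold protein (0.91). S100a6, at chr3:90612882-90624181 on the plus strand, had 377, 622, 1625 and 271 CPM in B-1-like cells of DOCA-salt mice and 267, 146, 4340 and 109 CPM in those of sham mice, against 32.9 to 184 CPM in other B cells. The sham mouse with 4340 CPM owed 105 of its 165 S100a6 UMIs to 1 cell. Cd9, a tetraspanin of B-1 and marginal zone B cells, was higher in 7 of 8 mice with a median log2 ratio of 1.72. Cd5 was found in 7 of the 135 cells, with 14 UMIs in all. Itgam, which encodes CD11b of cavity B-1 cells, had 4 UMIs in 4 cells, and Spn, which encodes CD43, had a log2 ratio of 0.36 and was higher in 5 of 8 mice. S100a6, Plscr1, Ptpn22 and Ahnak were thus higher in 8 of 8 mice and Cd9 in 7. Cd5, Itgam and Spn, which define B-1 cells in flow cytometry, were sparse. The list was chosen with earlier results of these data known, so these genes do not decide whether the cells are B-1 cells.

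Follicular genes were lower on balance, and genes of the other B cell subsets were mixed. Fcer2a averaged 214 CPM in B-1-like and 606 CPM in other B cells and was lower in 8 of 8 mice, with a log2 ratio of −1.21. It had 285, 215, 61.7 and 127 CPM in B-1-like cells of DOCA-salt mice and 291, 321, 105 and 309 CPM in those of sham mice, against 474 to 692 CPM in other B cells. Of the 7 follicular B cell genes, all measured, 2 were lower in 8 of 8 mice, Fcer2a among them, and the list's median was −0.41. Of 5 measured marginal zone genes of 7, none was on 1 side in 8 of 8 mice, and the median was 0.17. The 7 genes summed to 319 to 579 CPM per mouse in B-1-like and 267 to 326 CPM in other B cells. Within that list Dtx1 had a log2 ratio of 1.06 and was higher in 7 of 8 mice, while the complement receptor gene Cr2 had one of −0.41. Of 4 measured transitional B cell genes of 7, none was on 1 side in all mice. Vpreb3 had a log2 ratio of −1.43 and was lower in 7 of 8 mice, and Cd24a had one of 0.75 and was higher in 6 of 8. Of 8 genes of memory and age-associated B cells, a list that also holds Fcrl5 of the rule, 2 were measured, none was on 1 side in 8 of 8 mice, and the median was 0.43.

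Signs of antibody secretion were few. Of 7 plasma cell genes 4 were measured, none of them on 1 side in 8 of 8 mice, with a median of −0.10. Jchain, which links IgM pentamers, had 40 UMIs, all in 4 of the 135 cells. Of 16 genes of antibody secretion and the endoplasmic reticulum, Pdia4, a disulfide isomerase, was higher in 8 of 8 mice, at 313 CPM in B-1-like and 148 CPM in other B cells, and the list's median was 0.17. Of 11 cell cycle genes 6 were measured, none higher in 8 of 8 mice, and Mki67 and Cdk1 had 0 UMIs in the 135 cells.

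Several B cell regulators were lower. Among 16 B cell transcription factors, Ebf1 (−0.77), Bach2 (−0.94), Mef2c (−0.73) and Foxo1 (−0.25) were lower in 8 of 8 mice and Pou2f2 (0.30) was higher, with a list median of −0.15. Ebf1, which sets B cell identity, averaged 855 CPM in B-1-like and 1430 CPM in other B cells. Of 16 genes of B cell receptor signalling, the kinase Blk (0.52) was higher in 8 of 8 mice and none was lower. Of 9 measured inhibitory receptor genes of 12, the phosphatase Ptpn6 (−0.45) and Fcrl1 (−0.41) were lower. Of 13 measured homing and egress genes of 15, 3 were lower in 8 of 8 mice, among them Gpr183 (−0.89) and Cnr2 (−0.56), and Itgb1 was higher. Gpr183 guides B cells towards the outer follicle along oxysterols. Of 10 MHC class II genes, H2-Ob (−0.37) was lower in 8 of 8 mice and the list's median was −0.38. Of 12 S100 and annexin genes, S100a6, S100a11 (0.54) and Anxa2 (0.84) were higher in 8 of 8 and the median was 0.68. Of 8 measured survival genes of 10, the kinase Pim2 (0.50) was higher in 8 of 8.

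Among the genes that the ranking named as lower, S100a9 (−2.13) and Lyz2 (−1.34) are neutrophil and macrophage products. The 4 neutrophil genes summed to 0 to 39.8 CPM in B-1-like and 7.08 to 293 CPM in other B cells, and the part of free RNA was not tested. Smad7 and Tmem108 (both −2.02), Satb1 (−1.89) and Stat4 (−1.52) were the next. Over all 135 B-1-like cells they rested on 9, 9, 23 and 20 UMIs, and S100a9 on 5, so the size of these ratios is uncertain. Satb1, a chromatin organiser, averaged 42.6 CPM in B-1-like and 129 CPM in other B cells. The other named genes were Fcer2a, Rnf144a, Pxdc1, Treml2, Icosl, Trim59, Arhgef3, Helz2 and Gngt2, with log2 ratios of −1.45 to −1.10. Fcer2a had 144 UMIs in B-1-like cells, and each of the rest had 20 to 35.

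Messages of other cell types were looked for in the B-1-like cells. Of 6 T cell genes 5 were at 0 UMIs, including the 3 Cd3 genes that the rule required to be at 0, and their summed level was 0 to 5.98 CPM per mouse, against 2.68 to 17.6 CPM in other B cells. All 3 fibroblast genes and 3 of 4 dendritic cell genes were at 0. The 8 macrophage genes summed to 364 to 884 CPM, against 615 to 1046 CPM in other B cells. The 5 NK cell genes summed to 0 to 1005 CPM, against 199 to 637 CPM in other B cells. NK genes Ncr1, Klrb1c and Nkg7 together reached 2 UMIs in 4 of 88 B-1-like cells of DOCA-salt hearts and in 0 of 47 of sham hearts. Scrublet called those same 4 cells doublets, and it called no other B-1-like cell a doublet.

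Receptor messages set the B-1-like cells apart in a few V genes. A V gene was assigned to a cell as the heavy or light chain V gene with most UMIs, at least 2. Ighv11-2 was the heavy chain V gene in 8 of 134 B-1-like cells, 5.97% with an exact Clopper-Pearson 95% interval of 2.61 to 11.4%. It was that of 5 of 4751 other B cells, 0.105% (0.0342 to 0.245%). All 8 B-1-like cells with Ighv11-2 had Igkv14-126 as their light chain, a pairing known in mice as a phosphatidylcholine-binding B-1 receptor. These 8 cells came from 5 mice, with 2, 3, 1 and 1 cells in the DOCA-salt mice and 1, 0, 0 and 0 cells in the sham mice, whereas 2 of 4506 other B cells had the pair. The other known receptor of this kind, Ighv12-3 with Igkv4-91, was found in 1 B-1-like cell. Ighv12-3 itself was found in 3 of 134 B-1-like cells, all from DOCA-salt mice, and in 4 of 4751 other B cells.

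Light chains differed in the same descriptive way. Igkv14-126 was used by 10 of 125 B-1-like cells with a kappa V gene (95% interval 3.90 to 14.2%), of which 9 came from DOCA-salt and 1 from sham hearts, and by 0.530% of other B cells. Igkv4-91 was used by 5 of 125 B-1-like cells and by 34 of 4720 other B cells, or 0.720%. Lambda V genes outnumbered kappa V genes in 16 of 135 B-1-like cells, 11.9% (6.93 to 18.5%), and in 277 of 4907 other B cells, 5.64%. Those 16 cells were spread as 3, 4, 4 and 3 over the DOCA-salt mice and 0, 1, 0 and 1 over the sham mice. The constant genes gave another picture, with more lambda than kappa constant UMIs in 92.6% of B-1-like and 82.6% of other B cells. The 2 measures conflict, so the lambda shares hold for V gene messages only and are uncertain as shares of lambda-bearing cells. The repertoire was otherwise broad, since the 134 cells with both chains held 121 distinct pairs and 54 heavy chain V genes. The intervals cover counting error only, and they treat cells of 1 mouse as independent, which members of 1 clone are not. V genes are near-identical copies of each other in places, so reads may be split between them.

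**Figure D2:**
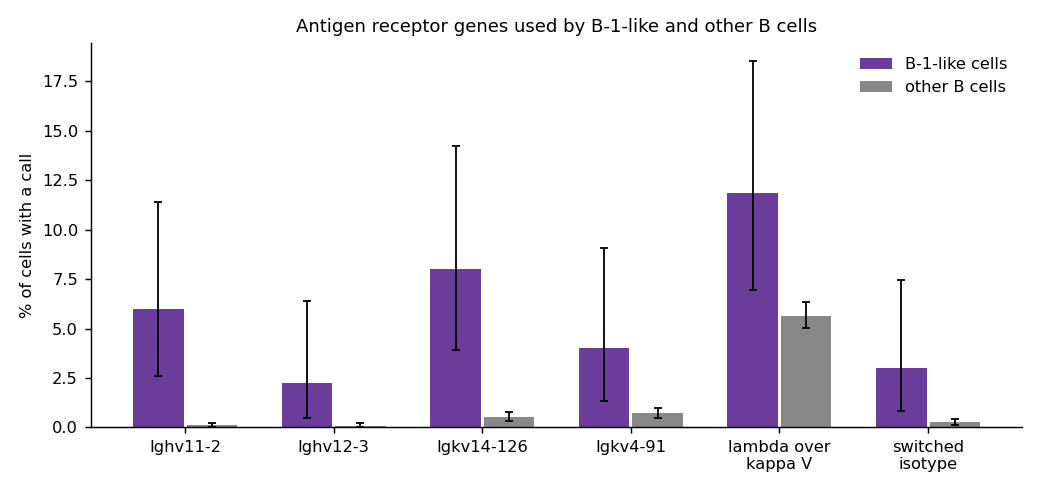
Percent of cells (y axis) with the named V gene, with more lambda than kappa V gene UMIs, or with a switched isotype, for B-1-like cells and other B cells over all 8 mice; bars give exact 95% binomial intervals. Ighv11-2 was found in 5.97% of B-1-like cells and 0.105% of other B cells.

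Most B-1-like cells carried IgM messages. Ighm averaged 1108 ± 119 CPM in B-1-like and 945 ± 99.8 CPM in other B cells, and Ighd 241 ± 118 and 416 ± 47.5 CPM (SD, n = 8 mice). Ighm exceeded Ighd in 112 of 124 B-1-like cells, 90.3% (83.7 to 94.9%), and in 79.0% of other B cells. Constant genes of switched isotypes exceeded Ighm and Ighd in 4 of 134 B-1-like cells, 2.99% (0.819 to 7.47%), 1 in each DOCA-salt mouse, and in 0.256% of other B cells. No switched cell was found among 46 sham B-1-like cells, which allows a share of up to 6.52%. Over all 135 cells Igha had 12 UMIs, Ighg3 had 8, Ighg2b had 7, Ighg2c had 5, and Ighg1 and Ighe had 0.

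The antibodies gave a measure that the rule had not used. Antibody counts were summed over the cells of a class in a mouse and are given per 10000 summed surface antibody UMIs, so that cells with more antibody UMIs weigh more. They were compared within mice by an exact two-sided sign-flip permutation test over 8 mice, which cannot give a p below 0.00781. CD44, an adhesion receptor that rises on activated and memory lymphocytes, had 4304, 4591, 4783 and 5416 in B-1-like cells of DOCA-salt mice and 3644, 3492, 4746 and 4489 in those of sham mice. Other B cells had 3706, 3900.5, 3417 and 3768 in DOCA-salt mice and 3132, 2970, 2967.5 and 3311.5 in sham mice. CD44 was higher in B-1-like cells in 8 of 8 mice, by 0.38 ± 0.18 on the log2 scale (mean ± SD; exact permutation p = 0.00781, adjusted p = 0.0156 over 16 antibodies). CD80, a costimulatory ligand of memory and B-1 cells, was higher in 7 of 8 mice by 0.35 ± 0.31 (exact permutation, adjusted p = 0.0192). Its values were 570, 611, 932 and 462 in B-1-like cells of DOCA-salt mice and 612, 588, 796 and 486.5 in those of sham mice, against 435, 361, 576 and 446 in other B cells of DOCA-salt mice and 476, 600.3, 540 and 470 in those of sham mice.

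The other antibodies were level or lower as shares. In all, 14 of 16 antibodies passed an adjusted p of 0.05 by the exact test, CD44 and CD80 higher and 12 lower. CD11b, the integrin chain found on cavity B-1 cells, was lower in 7 of 8 mice by 0.57 ± 0.34 on the log2 scale. CD39 and Gal3 did not pass, at −0.35 (adjusted p = 0.0583) and −0.09 (adjusted p = 0.898) by the same exact test. Shares add up to a fixed total, and CD44 alone held 44.8% of the antibody UMIs of B-1-like cells and 34.5% of those of other B cells, so a higher CD44 lowers the shares of the rest. As mean UMIs per cell, 3 of 16 antibodies passed, all higher in B-1-like cells, among them CD44 by 1.12 and CD80 by 1.09 on the log2 scale (adjusted p = 0.0417 each by the exact test). CD11b was then at 0.18 and Gal3 at 0.65, with their signs turned. B-1-like cells had a median of 3709 antibody UMIs, against 2230 in other B cells, so CD44 and CD80 were higher on both scales and the remaining directions depended on the scale.

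**Figure D3:**
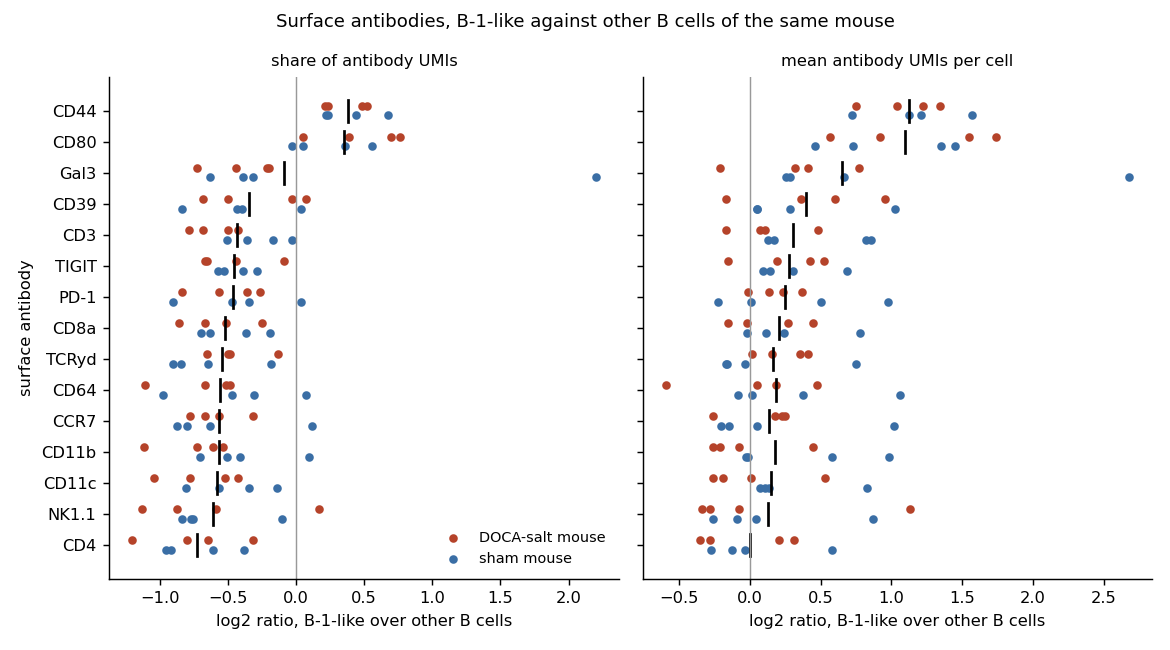
Within-mouse log2 ratio of B-1-like over other B cells (x axis) for surface antibodies, as shares of the antibody UMIs on the left and as mean UMIs per cell on the right; 1 point is 1 of 8 mice and the black tick is the mean. CD44 averaged 0.38 as a share and 1.12 per cell, while CD11b averaged −0.57 as a share and 0.18 per cell.

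Against the deeper B cells with 1 marker, CD44 was 0.29 and CD80 0.44 higher on the log2 share scale (adjusted p = 0.0208 each, exact permutation test). CD80, at 0.35 with the main gate, did not pass under 2 stricter gates, which kept fewer cells. With at least 3 markers required, 27 cells were left, 1 to 6 per mouse. Its ratio was then 0.18 (exact permutation test, adjusted p = 0.719). With no C1q UMI allowed, 44 DOCA-salt and 30 sham cells were left, and its ratio was 0.34 (exact permutation test, adjusted p = 0.100). For scale, the median CD80 count per cell was 199 in B-1-like cells, 86 in other B cells, 105 in T cells, 57 in NK cells and 598 in macrophages. Between treatments, none of the 16 antibodies differed within B-1-like cells after adjustment. The lowest unadjusted p was that of CD11c, with 59.6, 52.4, 42.5 and 47.6 per 10000 in DOCA-salt mice and 96.6, 86.9, 60.4 and 60.8 in sham mice, groups that did not overlap (log2 −0.56, exact permutation p = 0.0286, adjusted p = 0.305). No other antibody had an unadjusted p under 0.05.

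B-1-like cells made up a larger share of B cells in the DOCA-salt mice, but the difference did not pass the test. Counts were 21, 27, 17 and 23 cells in the DOCA-salt mice and 8, 18, 7 and 14 in the sham mice. As shares of B cells these were 2.25, 3.16, 5.45 and 2.78% in DOCA-salt mice, against 1.46, 2.66, 2.10 and 2.15% in sham mice. The means were 3.41 ± 1.41% and 2.09 ± 0.492% (SD, n = 4 each), a difference of 1.32 percentage points (exact two-sided permutation p = 0.0571, adjusted p = 0.114 over the pair of shares tested). A test of 4 against 4 cannot go below 0.0286. The groups overlapped in 1 place, since sham mouse 2 stood above DOCA-salt mouse 1. Without DOCA-salt mouse 3, which had the fewest B-1-like cells of its group and the highest share, the difference was 0.638 points. As shares of all assigned cells the values were 0.949, 1.41, 2.18 and 1.08% in DOCA-salt mice and 0.815, 1.48, 1.12 and 1.08% in sham mice, a difference of 0.283 points (exact permutation p = 0.486), or 0.0245 points without DOCA-salt mouse 3. B cells as a whole were 41.5 ± 2.60% of assigned cells in DOCA-salt hearts and 53.8 ± 2.51% in sham hearts. The share among B cells is thus taken over a smaller part of the assigned cells in DOCA-salt hearts.

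Cell depth also tended to be greater in DOCA-salt mice, and its part in the share of each mouse was not tested. The median UMIs of B-1-like cells were 4792, 6503, 5330 and 4259 in DOCA-salt mice and 3768.5, 3463, 4802 and 3627.5 in sham mice. Those of other B cells were 2972, 2925.5, 2567 and 3035.5 in DOCA-salt mice and 2608, 2788, 2536.5 and 2608.5 in sham mice. DOCA-salt mouse 3, with the highest share, had the lowest median of its group there. After thinning to 1500 UMIs, for which 256 of 2928 DOCA-salt and 218 of 2211 sham B cells were too shallow, the whole rule was applied again. Then 21 DOCA-salt and 17 sham cells met it, all of them B-1-like with all UMIs too. The B cells that they are a share of were 2763 in DOCA-salt and 2086 in sham hearts, and 152 and 116 of those had entered the B cell gate only after thinning. Their shares of B cells were 0.773, 0.505, 1.42 and 0.764% in DOCA-salt mice and 0.584, 1.26, 0.962 and 0.481% in sham mice. The difference was then 0.0456 points (exact permutation p = 0.886). Dropping Bhlhe41 from the rule left a difference of 1.24 points (exact permutation p = 0.0286, adjusted p = 0.0571). The other changes of the marker set gave smaller differences. These were 1.06 points without Zbtb32, 0.535 without Fcrl5 and 0.410 without Mzb1 (exact permutation p = 0.229, 0.143 and 0.171). With at least 3 markers the difference was 0.301 points (exact permutation p = 0.286). C1q messages, which the rule allowed up to 2 UMIs of, were found in 44 of 88 B-1-like cells of DOCA-salt hearts and in 17 of 47 of sham hearts. With no C1q UMI allowed, the difference in the share of B cells was 1.04 points (exact permutation test, adjusted p = 0.743). Shares of cells do not say whether the number of cells in the heart differed.

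**Figure D4:**
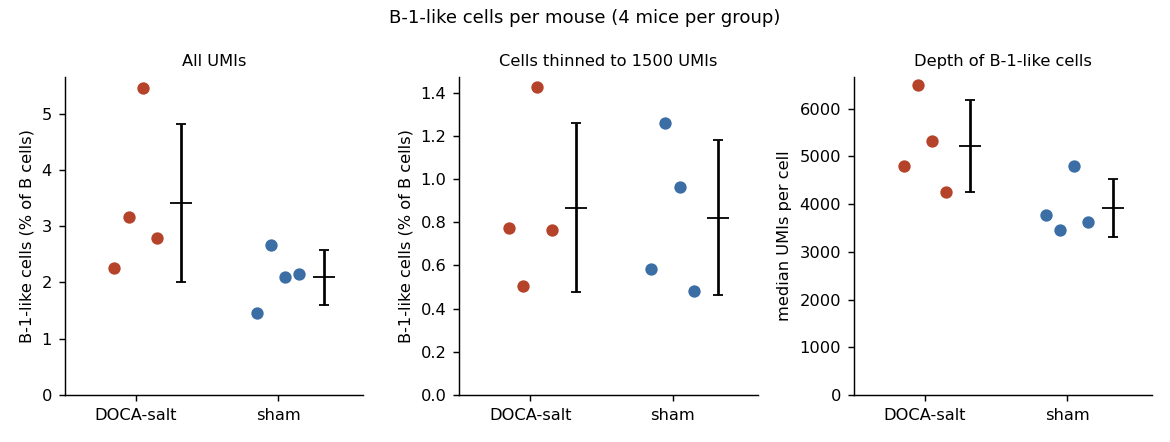
B-1-like cells as a percent of B cells with all UMIs (left) and after thinning to 1500 UMIs (middle), and the median UMIs of B-1-like cells (right), for 4 DOCA-salt and 4 sham mice; points are mice, and the bar gives the mean with its SD. The means were 3.41 and 2.09% with all UMIs and 0.867 and 0.821% after thinning.

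Expression in B-1-like cells differed between treatments past the threshold for 1 gene. UMIs were summed per mouse and compared with edgeR's quasi-likelihood test with Benjamini-Hochberg adjustment. Of 1091 genes that passed the filter on low counts, 1 (0.0917%) had an adjusted p under 0.05, 73 had an unadjusted p under 0.05, and 44 (4.03%) had groups of mice that did not overlap. DESeq2 also called 1 gene, with 48 at an unadjusted p under 0.05. The summed UMIs per mouse were 38016 to 167165, against 767368 to 2790872 in other B cells. Left out in turn, DOCA-salt mice 2 and 3 and sham mouse 1 gave 2 genes each, and sham mouse 3 gave 3.

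That gene was the kappa V gene Igkv16-104, at chr6:68425575-68426072 on the plus strand. It had 0, 0, 0 and 2 UMIs in the B-1-like cells of the DOCA-salt mice and 21, 15, 30 and 16 UMIs in those of the sham mice (edgeR, adjusted p = 0.00117). In each sham mouse 1 cell held all of these UMIs, so the difference is that of 4 cells against none with 10 or more UMIs. Over the groups, the DOCA-salt level was 0.00991 of the sham level, with a 95% interval of 0.00118 to 0.0370 for counting error only. That interval treats the UMIs of 1 cell as independent, which they are not, so it is too narrow. In other B cells the gene stood at a log2 change of 0.19 (edgeR, adjusted p = 0.592).

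The 10 genes with the largest changes among those with no overlap, an unadjusted p under 0.05 and at least 100 CPM did not pass the adjusted threshold. Mat2a, which makes the methyl donor S-adenosylmethionine, had 248, 179, 257 and 151 CPM in DOCA-salt mice, against 72.7, 58.3, 132 and 72.8 CPM in sham mice (log2 change 1.34 ± 0.34, SE; edgeR, adjusted p = 0.319). Its change in other B cells was 0.37 (edgeR, adjusted p = 0.176). Uqcr10, a subunit of respiratory complex III, had 257, 150, 195 and 175 CPM in DOCA-salt mice, against 97.0, 87.5, 78.9 and 54.6 CPM in sham mice (1.24 ± 0.32; edgeR, adjusted p = 0.319). In other B cells Uqcr10 was at −0.05. Every DOCA-salt mouse was above every sham mouse for both genes. Hspd1, a mitochondrial chaperonin, had 175, 401, 195 and 159 CPM in DOCA-salt mice and 72.7, 146, 105 and 127 CPM in sham mice (1.02 ± 0.41; edgeR, adjusted p = 0.660). Rbm25 and Hnrnpab, which bind RNA, had log2 changes of 1.03 ± 0.38 and 0.99 ± 0.28.

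On the lower side, Zfp36l2, which promotes the decay of messages with AU-rich elements, had 138, 173, 195 and 127 CPM in DOCA-salt mice, against 218, 496, 210 and 455 CPM in sham mice (−1.20 ± 0.29; edgeR, adjusted p = 0.319). Gnai2, the inhibitory G protein subunit through which chemokine receptors signal, had 358, 299, 339 and 350 CPM in DOCA-salt mice, against 485, 525, 552 and 564 CPM in sham mice (−0.68 ± 0.18; edgeR, adjusted p = 0.319). In other B cells both genes fell past the threshold, Zfp36l2 by 0.92 (edgeR, adjusted p = 0.000644) and Gnai2 by 0.69 (edgeR, adjusted p = 0.00018) on the log2 scale. Ly6a, which encodes Sca-1, had 496, 281, 555 and 566 CPM in DOCA-salt mice, against 824, 729, 710 and 783 CPM in sham mice (−0.72 ± 0.23). Dusp11 and Vps28 were at −0.66 each. Malat1, a nuclear RNA, had 4703, 5767, 4998 and 5321 CPM in DOCA-salt mice and 7055, 9217.5, 5655.5 and 9011 CPM in sham mice (−0.60 ± 0.14; edgeR, adjusted p = 0.319). Those groups overlapped, as sham mouse 3 stood below DOCA-salt mouse 2, and without sham mouse 3 the gene passed (−0.69; edgeR, adjusted p = 0.0296). Malat1 in other B cells fell by 0.78 (edgeR, adjusted p = 5.28e-07).

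**Figure D5:**
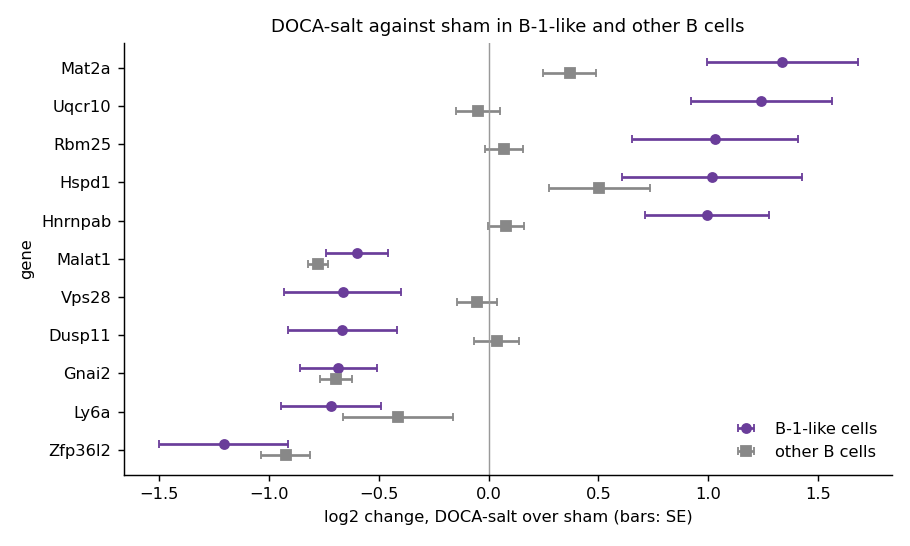
Log2 change of DOCA-salt over sham (x axis) with its standard error from edgeR, in B-1-like and other B cells, for the 10 named genes and Malat1. Of these, none passed an adjusted p of 0.05 in B-1-like cells, and Gnai2 was at −0.68 in B-1-like cells and −0.69 in other B cells.

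The genes that marked the B-1-like cells did not pass between treatments, or were too low to test. Plac8 had a log2 change of 0.05 ± 0.35 and S100a6 one of −0.73 ± 0.96 (edgeR, adjusted p = 0.997 and 0.943). In other B cells S100a6 rose by 1.02 (edgeR, adjusted p = 0.019). Cd9, at chr6:125460266-125494791 on the minus strand, was too low for the filter, but its groups did not overlap. It had 239, 95.7, 175 and 127 CPM in DOCA-salt mice, against 24.2, 29.2, 52.6 and 0 CPM in sham mice. The UMIs behind these were 26, 16, 17 and 16 in DOCA-salt mice, from 8, 10, 8 and 7 cells, against 1, 2, 2 and 0 in sham mice. With the filter lowered to a minimum count of 5 its log2 change was 2.58 ± 0.58 (edgeR, adjusted p = 0.197). With no filter on low counts it was 2.78 ± 0.54 and passed (edgeR, adjusted p = 5.6e-05), 1 of 110 genes that did so among 11227 tested there. The median change over all genes of that unfiltered fit was 0.31, against −0.01 with the filter, and its first calls were V genes. In other B cells Cd9 was at 0.52 (edgeR, adjusted p = 0.269). Cd9 was singled out after its values were seen.

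None of the listed genes tested in B-1-like cells passed the threshold by edgeR or DESeq2, since the 1 gene called is in no list. All 8 tested MHC class II genes were below 0, with a median of −0.37. Cd74, the invariant chain, was at −0.31 ± 0.10 (edgeR, adjusted p = 0.417) and at −0.02 in other B cells. All 6 tested follicular genes were below 0 as well, with a median of −0.36, against 0.01 in other B cells. Of 8 tested S100 and annexin genes 6 were above 0, with a median of 0.32, and of 12 secretion and endoplasmic reticulum genes 8 were above 0, with a median of 0.05. The 3 tested B-1 genes had a median of −0.14. Over all 1091 genes the median was −0.01, with 528 above and 563 below 0. A list of genes lowered in several lymphoid classes of these same data had 5 tested members, all below 0 with a median of −0.68. That list was chosen on these data and is not independent evidence.

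In the other B cells, 150 of 8744 genes (1.72%) passed, 38 higher and 112 lower. Of the 112 lower genes 29 were tested in B-1-like cells, where 23 had the same sign, with a median of −0.36, against −0.46 in other B cells. Of the 38 higher genes 12 were tested, and 10 had the same sign, with medians of 0.17 and 0.33. None of these was called in B-1-like cells, where 1 of the 12 and 9 of the 29 had an unadjusted edgeR p under 0.05. Both classes come from the same mice and libraries, so the shared signs are a description.

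The difference of the DOCA-salt effect between B-1-like and other B cells passed for 6 of 7382 genes (0.0813%), and all 6 were light chain V genes. The low-count filter of this fit used the sums of both classes. Igkv9-124, Igkv3-4, Igkv1-110 and Igkv6-32 did not pass that filter in B-1-like cells alone. They entered with the counts of other B cells, so their results do not show a treatment effect in B-1-like cells. Igkv16-104 was the first (edgeR, adjusted p = 6.01e-06). Igkv9-124 had 62, 131, 0 and 52 UMIs in B-1-like cells of DOCA-salt mice and 0 in each sham mouse, with 62, 130 and 51 of these from 1 cell each. Igkv3-4 had 0 UMIs in each DOCA-salt mouse and 18, 49, 0 and 48 in the sham mice. Iglv1 was spread over more cells, with 136, 207, 65 and 96 UMIs in DOCA-salt mice, against 2, 36, 3 and 24 in sham mice (edgeR, adjusted p = 0.0496). Igkv1-110 had 1, 1, 0 and 0 UMIs in DOCA-salt mice, against 0, 59, 133 and 1 in sham mice. Igkv6-32 had 0 UMIs in each DOCA-salt mouse, against 0, 65, 0 and 88 in sham mice. Outside the V genes no difference passed. Uqcr10 came to 1.501 (edgeR, adjusted p = 0.283), on a scale where the median over all genes was 0.18, or 0.04 with DESeq2's size factors. Gzma, a granule protease of cytotoxic cells, came to 3.79 ± 1.10 (edgeR, adjusted p = 0.489), with 2, 101, 2 and 43 UMIs in DOCA-salt mice, against 1, 1, 0 and 0 in sham mice, and the 3 cells with 10 or more Gzma UMIs were among the Scrublet doublets.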

How the data were processed

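The deposited files held whole-number UMI counts per feature and barcode, 1 matrix per group with 31053 genes and 20 antibody features, of which 4 were hashtags. The authors made these counts with Cell Ranger, per the file headers, and Seurat 4 and the genome build mm10 stand in the submitters' processing notes. The RNA totals were 29764964 UMIs in the DOCA-salt library and 13304511 in the sham library.

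Kept were barcodes that had 200 or more genes and no more than 10% of UMIs from mitochondrial genes, 7351 of 7600 in the DOCA-salt library and 4254 of 4359 in the sham library. A cell was given to the mouse whose hashtag had at least 2 times the UMIs of the next one, and the 4 hashtags were taken as the 4 biological replicates the labels name. Scrublet (scanpy 1.11.5) marked 243 cells (3.31%) as doublets in the DOCA-salt library and 53 (1.25%) in the sham library, which stayed in and were left out in an alternative. T cells, NK cells and macrophages, used for comparison, were gated by Cd3, NK and C1q UMIs.

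RNA counts were summed per mouse and class. Treatments were compared with edgeR 4.0.16 (R 4.3.3; filterByExpr, TMM, quasi-likelihood test over all genes that passed the filter, Benjamini-Hochberg adjustment), and the difference of effects by an interaction between class and treatment. DESeq2 1.42.0 was an alternative. Shares and antibodies were tested with exact permutation tests. Antibody ratios used log2 with a pseudocount of 1. The procedure was tested on simulated data. The classes' ratios of RNA came from CPM with a pseudocount of 10. Floors for a count of 0 are 3 counts, and intervals cover counting error only. Positions came from the GENCODE annotation of GRCm38.

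Named genes were the rule's genes, up to 15 genes per direction between the classes (the same direction in 8 of 8 mice and at least 50 CPM), up to 6 per list by size, and between treatments those past the threshold, filled to 5 per direction by size among genes without overlap. Numbered gene models, ribosomal, mitochondrial, haemoglobin, sex-linked and V genes were left out of the rankings, except where a V gene passed or is a known phosphatidylcholine receptor gene. Values of 1 antibody and 1 gene are not reported here. The members and the gene lists were chosen with earlier results of these data known.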

Additional observations from a re-analysis of the deposited data

Results flagged for a closer look

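In 4 of 46 groups of 4 mice that were looked at, 1 mouse stood far from the others of its group by Dixon's test, which chance gives in about 1 of 20 groups. CD11b in B-1-like cells of DOCA-salt mouse 1 was 593 per 10000 antibody UMIs, against 412, 416 and 409 in the other DOCA-salt mice. Gal3 in sham mouse 2 was 1040 per 10000 antibody UMIs. Hspd1 in DOCA-salt mouse 2 was 401 CPM, against 159 to 195 CPM in the other DOCA-salt mice. Igkv16-104 in DOCA-salt mouse 4 was 15.9 CPM, from 2 UMIs, with 0 in the other DOCA-salt mice.

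For 6 light chain V genes the DOCA-salt effect differed between B-1-like and other B cells by the edgeR test of the difference itself. Of these, Igkv9-124, Igkv3-4, Igkv1-110 and Igkv6-32 were too low for the filter in B-1-like cells alone and entered with the counts of other B cells. The adjusted p was 6.01e-06 for Igkv16-104, 7.35e-06 for Igkv9-124, 7.88e-06 for Igkv3-4, 0.00855 for Igkv1-110, 0.0139 for Igkv6-32 and 0.0496 for Iglv1. In Igkv16-104, Igkv9-124, Igkv3-4 and Igkv6-32, 1 cell held all or all but 1 of the B-1-like UMIs of each mouse that had 10 or more. In Igkv1-110 the UMIs sat in 1 cell of sham mouse 2 and 2 cells of sham mouse 3, and in Iglv1 the largest cell of a DOCA-salt mouse held 42 to 96 UMIs.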

How the results depend on the processing

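The difference in the share of B cells kept its sign under all alternatives, with 0.638 to 1.70 points when 1 mouse was left out and 0.0456 to 1.47 points otherwise (exact permutation test, adjusted p 0.0571 to 0.886). The share of assigned cells turned round with cells other than B cells as the denominator (−0.0343 points), after thinning (−0.114) and with no C1q UMI allowed (−0.0132), the cause of which was not tested. Leaving out 1 mouse gave 0.0245 to 0.436 points. The count of 1 gene between treatments became 0 with no C1q UMI, 0 with at least 3 markers and 0 after thinning by edgeR, with 37, 12 and 11 genes at an unadjusted p under 0.05 among fewer genes tested. It was 7 without the mice of under 10 B-1-like cells, 110 of 11227 genes with no filter on low counts, and 1 to 3 with 1 mouse left out. The mice of under 10 cells were sham mice 1 and 3, so only sham mice 2 and 4 stood as controls there. The 150 genes of other B cells became 62 to 132 with 1 mouse left out. The 6 genes of the difference became 3 by DESeq2, 21 with a minimum count of 5, and 3 to 14 with 1 mouse left out. Of 153 values of the named genes under alternatives, 0 changed sign and 3 passed the threshold, Mat2a and Uqcr10 with no filter, where Cd9 also passed, and Zfp36l2 without the mice of few cells. These genes were chosen because their groups of mice did not overlap, so the kept signs came largely with that choice. Malat1 also passed without the mice of few cells (−0.77). For both Zfp36l2 and Malat1, the sham mice left out there were the ones nearest to the DOCA-salt mice. The 14 antibodies became 3 as mean UMIs per cell, where CD11b (0.18), CD39 (0.40) and Gal3 (0.65) turned round. Gal3 was also 0.042 against the deeper B cells with 1 marker, and −0.42 to 0.00249 with 1 mouse left out. The 265 genes lower in 8 of 8 mice became 120 against those deeper B cells. DOCA-salt and sham mice could not be paired, because a hashtag number tells the mice of 1 library apart and ties no DOCA-salt mouse to a sham mouse. With 38016 to 167165 UMIs per mouse, B-1-like cells had 1091 genes above the filter, against 8744 in other B cells.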
